A study of Danio rerio with 2 samples.

Results

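The long arm of zebrafish chromosome 4 carried 210 of the 18728 distinct Tfap2a regions that were obtained at 24 h post-fertilization, or 1.15% of the 18247 regions on the 25 numbered chromosomes. Regions were taken as members by position alone, when they started at or beyond 27000000 on chromosome 4 in the authors' list, counted from the chromosome's start. The members held 240 records of the list, because 26 of them carried more than 1 summit. The data came from 2 samples (n1 and n2) of whole wild type embryos that received no treatment, and this was the only group. They were profiled by CUT&RUN, in which about 250000 dissociated cells per sample were given anti-Tfap2a and a nuclease tethered to the antibody freed the DNA beside it for 30 min, with an IgG antibody as control. The embryos were not sorted. The study also overlapped its Tfap2a peaks with chromatin that is accessible in cranial neural crest cells, and whether the deposited list is the one before or after that step is not stated, so the regions may or may not be limited to such chromatin. The authors deposited 1 peak list for both samples, so no value below has an error between embryos.

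Tfap2a is a transcription factor of the AP-2 family. It binds GC-rich DNA as a dimer and is known for its part in neural crest, craniofacial skeleton and epidermis. The long arm of chromosome 4 is an unusual part of the zebrafish genome. It replicates late, is rich in repeats and heterochromatin, has few genes shared with other vertebrates, and holds large families of zinc finger and NLR immune receptor genes beside copies of small RNA genes. The comparison asked whether Tfap2a regions there were as frequent, as spaced and as enriched as on ordinary chromosomes. Positions are given as in the list, counted from 1. The submitters' notes name both danRer10 and danRer11, and the list names neither, so no build was assigned, and no gene or sequence is given for a region.

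Tfap2a regions were sparse on the long arm. Between 27 Mb and the end of the last member, a stretch of 49.6 Mb, there were 4.23 regions per Mb. The short arm had 505 regions in 27 Mb, or 18.7 per Mb, which was above the density of any other chromosome. The 24 other numbered chromosomes had a mean of 13.9 regions per Mb (SD 1.33, n = 24), from 12.1 to 17.9. The long arm was thus 3.29-fold below this mean and 7.30 SD beneath it. The arm made up 64.8% of the span of chromosome 4 and held 29.4% of its 715 regions. These densities are of listed regions over the whole span. How much of the span reads could be mapped to was not measured, so they are not read as densities of binding.

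The density did not drop for good at the limit itself. There were 16 regions in the last Mb below 27 Mb, 4 in the first Mb above it and 48 in the next, so the first 2 Mb of the arm held 52 regions, or 26 per Mb. Beyond 29 Mb there were 158 regions, or 3.32 per Mb. Single Mb with 3 or 4 regions also occurred on the short arm. The last region below the limit, at 26926845-26927013, had a fold enrichment of 6.68 over the control. The first member followed after 567 kb, at 27494005-27494218, with a fold enrichment of 10.9. Starting the arm at 24 or 30 Mb gave 5.0 and 3.33 regions per Mb, and both were below all 24 chromosomes.

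**Figure D1:**
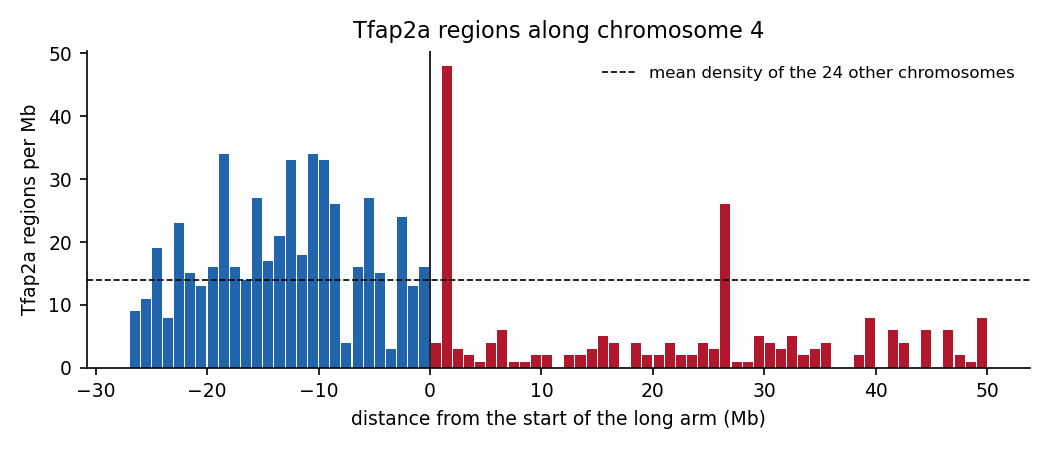
Number of Tfap2a regions in each Mb of chromosome 4 (y axis) by distance in Mb from the start of the long arm (x axis), with the short arm in blue and the long arm in red. The dashed line is the mean of the 24 other chromosomes, 13.9 regions per Mb, which only 2 Mb of the long arm exceeded, with 48 and 26 regions.

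Most of the arm held few regions or none. Of its 49 whole Mb, 7 had no region, or 14.3%, whereas the other chromosomes had at most 2 empty Mb each and at most 3.77%. A further 40 Mb held 1 to 8 regions. The median Mb of the arm held 2 regions, against 16 on the short arm and a mean of 12.3 (SD 1.19, n = 24) over the other chromosomes. The longest stretch with no listed region ran for 2.41 Mb, from 62738936 to 65149721. The next ones, after 43814949 and after 66547827, ran for 1.87 and 1.83 Mb. On the other chromosomes the longest such stretch was 1.84 Mb. The list gives no read depth for positions outside its records, so these stretches cannot be called unbound.

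The members crowded into 2 places. Between 28 and 29 Mb lay 48 members, or 22.9% of all, and between 53 and 54 Mb lay 26. Together these 2 Mb held 35.2% of the members, while the 2 fullest Mb of any other chromosome held at most 16.4% of its regions. The other 136 members were spread over 47.6 Mb, or 2.86 per Mb. The count of 48 was itself not unusual, since the fullest Mb of the other chromosomes held 27 to 54 regions. The variance of the counts per Mb was 13.5 times their mean on the long arm, and 2.91 to 7.46 times on the other chromosomes.

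In the first of these places, 14 members lay within 13.8 kb, from 28572416 to 28586207. The run with most members on the arm, in which each lay within 2 kb of the next, had 7 regions from 28575305 to 28580542. A second run of 6 regions followed from 28582740 to 28586207, and another, also of 6, lay at 28752709-28755089. The longest runs elsewhere on the arm had 3 regions, and there were 7 runs of this size in all. A run of 7 was not unusual either, since on 12 of the other chromosomes the longest run had more than 7 regions, up to 21. In the second place, 24 members lay between 53734454 and 53934087, over 200 kb, and no run there exceeded 3 regions.

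Very short and very long distances were therefore both more frequent among members than among regions of the other chromosomes. Of the 210 members, 84 had another region within 2 kb, or 40.0% (the other chromosomes had 9.09 to 18.1%, with a mean of 13.0% and SD 2.22%, and the short arm had 13.1%). This was 12.2 SD above the mean of the other chromosomes. The median distance to the next region, 30.0 kb, was nevertheless inside the range of the other chromosomes, 22.1 to 34.3 kb. This median hid a wide spread, because 21.5% of the distances were at most 1 kb and 15.8% exceeded 500 kb. On the other 24 chromosomes together these shares were 5.0% and 1.38%. There were 11 distances above 1 Mb on the long arm and 22 on all 24 other chromosomes. Without the members from 28 to 29 Mb, 31.5% still had a neighbour within 2 kb, above all 24 chromosomes.

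**Figure D2:**
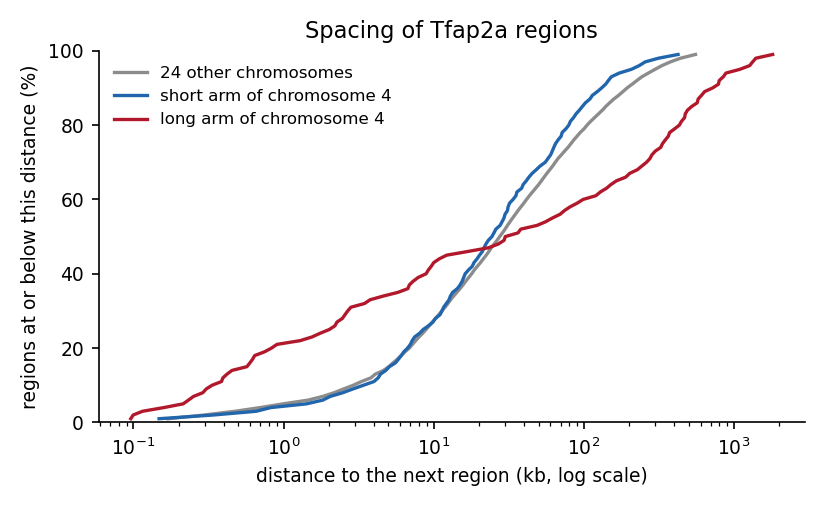
Share of regions (y axis, percent) whose next region lay at or below a given distance (x axis, kb, log scale), for the long arm (red), the short arm (blue) and the 24 other chromosomes together (grey). The curve of the long arm crosses both others near the medians, which are 30.0, 24.4 and 27.5 kb in this order, and the long arm has more short and more long distances.

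The median fold enrichment of the members was lower than on any other chromosome, by a modest amount. Fold enrichment here is the ratio that the authors' peak caller gave for anti-Tfap2a over control at the summit, and each region took the value of its record with the highest score. Its median was 6.90 on the long arm (quartiles 5.10 and 9.48), 8.18 on the short arm, and 7.68 to 8.43 on the 24 other chromosomes (mean 8.07, SD 0.241). Only 76 members, or 36.2% (Wilson 95% interval 30.0 to 42.9%), exceeded the median of the list, 8.01. The interval treats members as independent, which neighbours are not, so it may be too narrow. The median −log10 q was 9.20, against 9.56 to 11.5 on the other chromosomes. Without the members from 28 to 29 Mb the median fold enrichment was 7.34, which was still below all 24 chromosomes.

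The pileup behind these values was worked out from the deposited numbers. The authors' peak caller, MACS2, gives the fold enrichment as the summit pileup plus 1 over the control level plus 1, and a Poisson p for a pileup above the observed one. For all 21059 records a whole-number pileup met both deposited values, with −log10 p matched to within 0.001. The pileup is the number of overlapping reads or fragments at the summit. The control level is the value that the caller set against this pileup, which need not be a count of control reads at that place. The median pileup was 13 on the long arm and 13 to 15 on the other chromosomes. The median control level was 0.675, in the middle of the other chromosomes' range of 0.643 to 0.726. Members with a control level of at most 3 had medians of 11 for pileup and 0.551 for control level. All regions of the 24 other chromosomes, without that limit, had 13 and 0.671, so these medians are not compared like for like. With the limit on both sides, the median fold enrichment was 7.35 on the long arm and 7.75 to 8.54 on the other chromosomes. Because 1 is added to both pileup and control level, the fold enrichment is smaller at low pileups even where pileup over control is the same. The lower median fold enrichment is therefore not read as a lower pileup over control, which was not tested. For single regions the pileup was thus small, and Poisson 95% intervals, which cover counting error only, are given below where a pileup is printed for a leading member.

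Although the median control level was ordinary, larger shares of members than on the other chromosomes lay at its high and low ends. A control level above 3 was found at 42 members, or 20.0% (Wilson 95% interval 15.2 to 25.9%). This interval treats members as independent, which neighbours are not, so it may be too narrow. Such a level was found at 0.792% of the short arm's regions and at 0.136 to 10.4% of the other chromosomes'. The lowest level that occurs in the list, 0.306, was found at 26 members, or 12.4%, compared with 1.73 to 4.50% on the other chromosomes. The same value recurred at 559 regions of the 24 other chromosomes, so it may be a minimum set by the caller, which was not tested. It is therefore not read as a control signal measured at those places. Most of the high levels lay in 1 place. From 28 to 29 Mb, 31 of the 48 members were above 3, and without that Mb the share was 6.79%, inside the range of the other chromosomes (exact permutation test, p = 0.60). The other chromosomes kept their fullest Mb, in which 0 to 84.1% of regions were above 3. The comparison is therefore uneven and does not show that the rest of the arm was ordinary. The members at the lowest level all lay outside both crowded Mb.

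**Figure D3:**
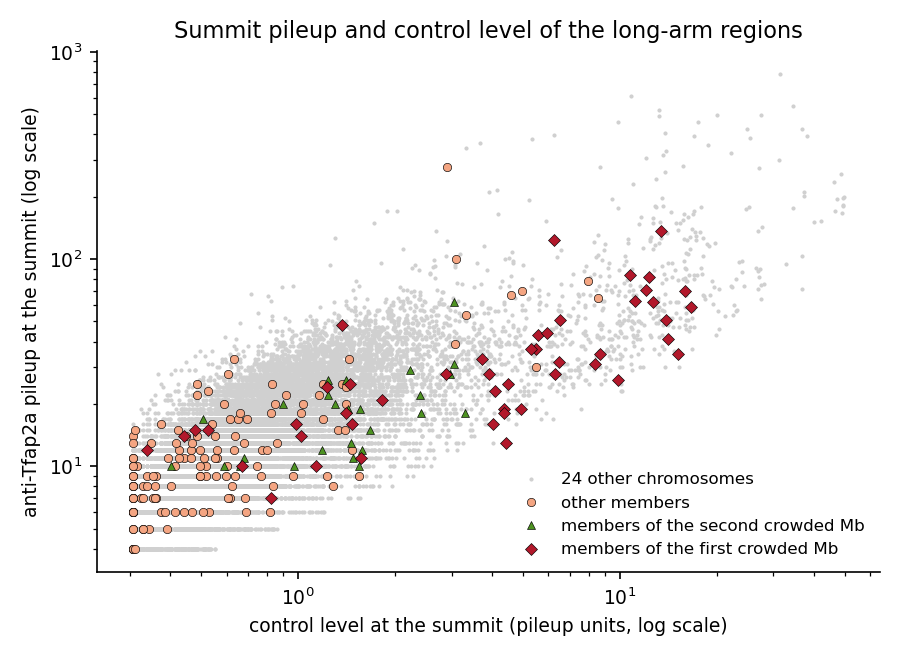
Anti-Tfap2a pileup at the summit (y axis, log scale) against the control level there (x axis, in units of pileup, log scale), for members from 28 to 29 Mb (red diamonds), from 53 to 54 Mb (green triangles), the other members (orange circles) and regions of the 24 other chromosomes (grey). The medians of the 3 sets of members were 28, 18 and 10 for pileup and 4.47, 1.45 and 0.50 for control level.

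Crowding and control level went together, among the members mostly in 1 place. Among members with another region within 2 kb, 35 of 84, or 41.7% (Wilson 95% interval 31.7 to 52.3%), had a control level above 3. Among the 126 others it was 7, or 5.56% (2.72 to 11.0%). The same held on the other chromosomes, with 26.5% of 2275 and 1.36% of 15257 regions. Of the 84 members, 33 lay from 28 to 29 Mb, where 31 of 48 members were above 3, so their share rested largely on that Mb. From 53 to 54 Mb, 18 of 26 members had another region within 2 kb, but only 3 of the 26 were above 3. The part of the control level in the crowding was not tested, and neighbouring regions can share their control reads, so these shares are not counts of independent places.

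The 14 members at 28572416-28586207 had the highest control levels of the arm except for 1 region near its end, which lay among them in order. Their control levels were 8.35 to 16.6 and their pileups 26 to 136, so their median fold enrichment was 3.96 although their median score, 159.5, was above that of the list, 105. The 7 regions of the longest run had fold enrichments of 2.24 to 9.50. The weakest of them, at 28579187-28579413, had a pileup of 35 over a control level of 15.1. The strongest, at 28576166-28576471, had a pileup of 136 over a control level of 13.4. Of the 14 members, 1 exceeded the median fold enrichment of the list and 9 exceeded its median score.

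The last of these runs, at 28752709-28755089, had control levels of 3.74 to 4.50 and fold enrichments of 2.58 to 7.18. The members of the second crowded place were different. At 53734454-53934087 the median fold enrichment was 7.22 and the median control level 1.47, and 3 of the 24 regions had a level above 3. Their strongest region, at 53800758-53801166, had a fold enrichment of 15.6 with 2 summits.

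The same comparison was made for the fullest Mb of each chromosome. In that of the long arm the median control level was 4.47, against 0.758 to 13.1 in those of the others. Its median fold enrichment was 5.87 (others 4.98 to 9.90), and 68.8% of its regions had another within 2 kb (others 0 to 80.0%). None of these 3 measures, nor the other 3 compared there, set the long arm apart (exact permutation test, two-sided, smallest of 6 p-values 0.20, adjusted p = 0.36). The other members, outside both crowded Mb, had a median pileup of 10, a median control level of 0.50 and a median fold enrichment of 7.35.

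A few members were among the strongest regions of the list. The highest score on the arm, 4311, belonged to the region at 61790978-61791199 and was the 16th highest of all 18728 regions. Its fold enrichment was 71.9, above 99.98% of the list, from a pileup of 279 (Poisson 95% interval 247 to 314) over a control level of 2.89. It stood alone, with its neighbours 443 kb before and 79.3 kb after it, and had 1 summit and a width of 222 bp. The next member by fold enrichment, 24.7, lay at 68416927-68417144 with a pileup of 100 (81.4 to 122), and had another region 124 bp away. Its score, 1066, was slightly below that of the region at 28605644-28605863, which scored 1073 with a fold enrichment of 17.2 and a pileup of 124 (103 to 148) over a control level of 6.26. These 3 were the only members among the 100 highest scores.

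The other 7 of the 10 highest-scoring members scored 414 to 810. Besides those already named at 28576166 and 53800758, the region at 28562742-28563057, at the front of the first crowded stretch, was the most enriched of the 7, at 20.7-fold. Near the end of the arm, 3 of the 7 lay at 76314864-76315071, 76315165-76315608 and 76326784-76327142. Their fold enrichments were 12.2, 11.9 and 8.81 and their control levels 4.57, 4.96 and 7.97. The remaining one lay at 68420210-68420539, with a fold enrichment of 12.7. Of the 10 highest-scoring members, 9 had a control level above 2 and 8 had another region within 500 bp. Of all members, 22.9% had a control level above 2, and of the regions of the 24 other chromosomes 7.89%. The share of all members with another region within 500 bp was not worked out. At the wider distances of 1 and 2 kb it was 35.2% and 40.0%. High-scoring regions elsewhere were not compared in these respects, so the counts are not read as particular to the arm. Without these 10 the density was 4.03 per Mb and the median fold enrichment 6.86. Leaving out any 10 of 210 members lowers the density by the same amount and can move a median only a little. These values therefore do not show how much the 10 contributed.

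Members were slightly narrower than other regions. Their median width was 171.5 bp (quartiles 130 and 243, from 93 to 536 bp), compared with 181 bp on the short arm and 179 to 199 bp on the other chromosomes. The widest member, at 28596716-28597251, had 3 summits. With only regions scoring above the median of the list, the long arm had a median width of 207.5 bp, which no longer lay below all other chromosomes (exact permutation test, p = 0.24).

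The number of summits did not set the arm apart. More than 1 summit was found in 26 members, or 12.4%, which was inside the range of the other chromosomes, 8.80 to 13.1% (exact permutation test, two-sided, p = 0.36). No member had more than 3 summits, and the 4 with 3 summits began at 28596716, 28609750, 28739628 and 48204276. The direction depended on the crowded Mb at 28 Mb, where 13 of 48 members had several summits. Without it the share was 8.02%, below all other chromosomes, which kept their own fullest Mb in this comparison.

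The records in the list carry numbers that follow position, and some numbers are missing, so the list does not hold every numbered record. The overlap with accessible chromatin is the 1 selection of these peaks that the study describes, and whether it left out the missing records is not known. Between the first and the last member, 210 of 445 numbers were present, or 47.2%. This was lower than on the short arm (53.7%) and all 24 other chromosomes (51.5 to 56.2%). At like distances the arm was inside their range. Neighbouring members within 10 kb had consecutive numbers in 92.2% of pairs (other chromosomes 84.6 to 94.1%). Neighbouring members farther apart had them in 39.5% of pairs (other chromosomes 37.8 to 46.1%). Counting the missing numbers too, the long arm had 8.97 per Mb, against 23.1 to 31.9 on the other chromosomes, so the arm was also sparse with the missing numbers counted. In the crowded Mb, which were picked for their many listed regions, 48 of 54 numbers were present from 28 to 29 Mb and 26 of 32 from 53 to 54 Mb, and all 14 numbers of the stretch at 28572416-28586207 were present.

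**Figure D4:**
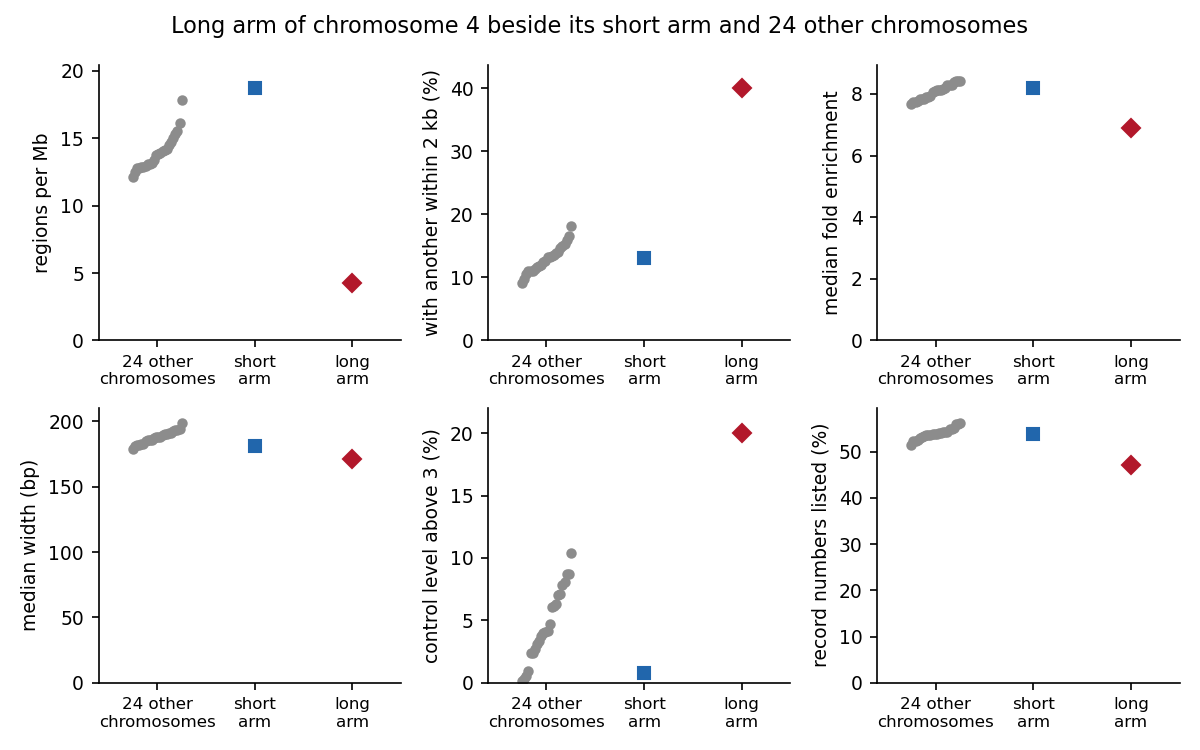
Each panel gives a measure (y axis from 0, in the units shown) for the 24 other chromosomes (grey points, in rising order), the short arm (blue square) and the long arm (red diamond). The long arm lies outside the range of the other chromosomes in all 6 panels, with 4.23 regions per Mb, 40.0% with a neighbour within 2 kb, a median fold enrichment of 6.90, a median width of 171.5 bp, 20.0% with a control level above 3 and 47.2% of record numbers listed.

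Each difference from the other chromosomes was tested by letting each of the 25 values take the place of the long arm (exact permutation test, two-sided). With 1 value against 24 this exact test cannot go below p = 0.04. Of 20 measures, 15 reached this smallest value, and their adjusted p was 0.053 (Benjamini-Hochberg over the 20), which did not pass 0.05. Those 15 include density, numbers per Mb, width, the share with a neighbour within 2 kb, fold enrichment, −log10 q, the share of numbers present and both shares of extreme control level. The other 5 were the share with several summits, summits per region, the median distance and the medians of pileup and control level. Chromosomes are not replicates of an experiment, and several of these measures follow from each other.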

How the data were processed

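The authors used Trim Galore for trimming, Bowtie2 for mapping and MACS2 for peaks over IgG. The paper gives danRer11 as the genome, and the submitters' processing notes give danRer10 and danRer11. All 247 unplaced scaffolds in the list have names with the prefix KN. The deposited list has 1 record per summit, with a score (the whole part of 10 times −log10 q in all 21059 records), a fold enrichment (the authors' ratio over the control), and −log10 p and −log10 q as deposited. The methods speak of calling peaks over each sample's own IgG, which would give a list per sample, but how the 2 samples led to 1 list is not given in the sources used here. Nor is it given whether the list had been limited to chromatin accessible in neural crest cells, an overlap that the study describes. The list has no read depth column and does not separate the samples.

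Overlapping records (at least 1 bp) were merged, each region taking the values of its highest-scoring record. Lengths ran from 0 (or 27 Mb) to the end of the last region. Pileup and control level were solved from fold enrichment and −log10 p, a step chosen after seeing the data. A second whole number also met the tolerance for 68 records, and the nearest was taken. Without the 1 added to pileup and control, 0.376% of the 797 records of chromosome 4 matched. Merging, this solution and the test were tested on simulated data. The simulated pileups and control levels covered a narrower range than the list, which has pileups of 4 to 834 and control levels up to 50.6. The solution was therefore not tested at the lowest pileups or at the highest values. Members, measures and comparisons were chosen with earlier results of these data known. Regions to be named were the 10 highest scores, the 3 longest runs, the widest member, the member with most summits, the regions beside 27 Mb and the 3 longest empty stretches. Others were named after their values were seen. Planned work on motifs, sequence copies and gene annotation was not run, for want of a matching genome. Python 3.11.15, numpy 2.4.6, pandas 2.3.3, scipy 1.17.1 and matplotlib 3.10.9 were used.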

Additional observations from a re-analysis of the deposited data

How the results depend on the processing

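In 53 of 60 alternatives the direction and the side of the unadjusted threshold of 0.05 (exact permutation test) were kept. This count includes alternatives that could not have changed a result, so it is not a measure of robustness. Merging only where 50% of the shorter record was shared left density, width and the share with several summits exactly as they were. Density (1.82 to 5.0 per Mb over 11 alternatives), spacing and the share of numbers present (41.4 to 47.2%) kept them in every alternative tried. For density and numbers present, part of this was fixed in advance. Leaving the strongest members, the longest run or a crowded Mb out of the long arm alone could only lower its density, already the lowest. Both crowded Mb had more of their numbers present than the arm, so leaving either out could only lower that share. The share with several summits turned below the mean of the other chromosomes from 30 Mb (8.39%), among regions above the median score (14.4%) and without the members from 28 to 29 Mb (8.02%). It rose above all of them with records within 100 bp merged (13.7%). Among regions above the median score, width (207.5 bp) and fold enrichment (10.3) no longer passed, and the share with a control level above 3 did not pass without the members from 28 to 29 Mb (6.79%). Leaving out stretches and changing the control level were alternatives chosen after seeing the data, and stretches were left out of the long arm only. The length of the chromosome in the reference was not run as an alternative, nor was leaving out a replicate. No paired analysis was possible because there is 1 group and samples share 1 list. Pileups of about 13 limit the precision of a single region.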

Other observations

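Regions on unplaced scaffolds came close to the members in several values. The 476 regions on 247 scaffolds had a median fold enrichment of 6.77, a median pileup of 13 and a median control level of 0.652. A control level above 3 was found at 25.6% of them (Wilson 95% interval 21.9 to 29.7%, taking regions as independent). The lowest level was found at 12.2%. Among the members these shares were 20.0% and 12.4%. Another region lay within 2 kb of 31.1% of them, although short scaffolds limit how far apart their regions can lie. More than 1 summit was found in 15.5%, compared with 12.4% of the members. These differences were not tested, since scaffolds are not units like chromosomes.

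Along the arm, cut into 5 parts of equal length, the members numbered 72, 24, 49, 32 and 33 in order. Their median fold enrichment was 6.19, 7.71, 6.93, 8.31 and 7.39, and their median control level 1.43, 0.464, 0.799, 0.521 and 0.510.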
